A study of Homo sapiens with 6 samples.

Results

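The peaks of histone H4 lysine 5 lactylation (H4K5la) at 8 genes for liver-enriched transcription factors are described here: HNF4A, HNF4G, FOXA1, FOXA2, FOXA3, ONECUT1, CEBPA and CEBPB. The genes were chosen by name, with earlier results of these data known, as 8 of 19974 protein-coding genes on chromosomes 1 to 22 and X. A peak was assigned to a gene when it overlapped the RefSeq gene span plus 10 kb on either side, and 79 of 181527 deposited peaks met that rule. The mark was mapped by chromatin immunoprecipitation with an H4K5la antibody and sequencing in PLC/PRF/5, an established human hepatocellular carcinoma line. One group of cells was given 20 mM lactate, as lactic acid, for 24 h, and the other was the untreated control. Each group had 2 libraries with a peak list, numbered replicates 2 and 3. The 2 input samples, made without antibody, came with no list of peaks and are not analysed here. All samples came from the same cell line, and nothing in the labels says whether replicates came from separate cultures, so p-values measure only the spread between these libraries. The study's title places H4K5la in a feedback on glycolysis in hepatocellular carcinoma, and the comparison here is of lactate-treated with control cells.

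Lactylation is the attachment of a lactyl group, derived from lactate, to lysines of histones and other proteins. Hepatocyte identity is held by a small network of transcription factors that bind each other's genes. HNF4A is a nuclear receptor needed for most hepatocyte functions, and HNF4G is its paralogue, known best from the gut. FOXA1, FOXA2 and FOXA3 are forkhead proteins that can bind closed chromatin, ONECUT1 (HNF6) is a cut-homeodomain factor of liver and bile duct development, and CEBPA and CEBPB are leucine zipper factors of hepatocyte metabolism and of the acute phase response. HNF4A is transcribed from an upstream promoter known as P2, used in the pancreas and other tissues, and from a downstream promoter known as P1, the main one in adult liver.

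The 2 HNF4A promoters are shown because they were the member promoters with a peak in every library. Sequences are from RefSeq (GRCh38.p14) and run 5′ to 3′ from 250 bases before to 50 bases after the annotated start. Capitals mark the bases that lay inside a peak in all 4 libraries. The ONECUT1 and CEBPA promoters follow as promoters that no peak of any library touched, so they hold no capitals.
HNF4A upstream promoter, chr20:44355449-44355748, plus strand: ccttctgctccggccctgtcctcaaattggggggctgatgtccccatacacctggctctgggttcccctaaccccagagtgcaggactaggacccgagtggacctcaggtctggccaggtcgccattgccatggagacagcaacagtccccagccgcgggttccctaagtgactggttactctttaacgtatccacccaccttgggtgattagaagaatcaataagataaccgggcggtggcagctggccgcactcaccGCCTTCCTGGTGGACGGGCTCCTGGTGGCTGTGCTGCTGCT
HNF4A downstream promoter, chr20:44400989-44401288, plus strand: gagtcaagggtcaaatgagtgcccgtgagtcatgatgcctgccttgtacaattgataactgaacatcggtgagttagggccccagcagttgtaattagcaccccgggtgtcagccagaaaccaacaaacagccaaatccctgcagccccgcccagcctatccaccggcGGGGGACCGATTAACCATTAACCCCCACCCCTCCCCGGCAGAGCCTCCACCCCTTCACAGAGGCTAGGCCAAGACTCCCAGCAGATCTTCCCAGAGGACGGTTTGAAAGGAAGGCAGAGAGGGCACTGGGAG
ONECUT1 promoter, chr15:52790287-52790586, minus strand: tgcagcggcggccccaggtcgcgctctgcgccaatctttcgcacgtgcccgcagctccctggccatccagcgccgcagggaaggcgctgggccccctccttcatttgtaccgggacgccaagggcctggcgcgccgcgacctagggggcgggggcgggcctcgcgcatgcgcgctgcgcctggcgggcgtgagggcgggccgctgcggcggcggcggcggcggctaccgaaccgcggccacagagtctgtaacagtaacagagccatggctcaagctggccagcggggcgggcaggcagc
CEBPA promoter, chr19:33302485-33302784, minus strand: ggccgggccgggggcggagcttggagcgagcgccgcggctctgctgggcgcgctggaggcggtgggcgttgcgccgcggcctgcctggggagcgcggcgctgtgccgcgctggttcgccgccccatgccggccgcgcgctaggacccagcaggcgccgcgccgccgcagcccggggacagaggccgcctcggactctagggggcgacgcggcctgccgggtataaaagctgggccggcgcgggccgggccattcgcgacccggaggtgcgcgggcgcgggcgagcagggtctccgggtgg

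At the HNF4A upstream promoter, peaks covered 77 and 79 of the 300 bases in lactate replicates 2 and 3, and 41 and 86 in control replicates 2 and 3. At the downstream promoter they covered 133 and 163 bases in the lactate libraries and 132 and 246 in the control libraries. The 2 HNF4A starts lie 45540 bp apart. Promoter sequences were at hand for 6 of the 8 genes, in 8 promoter windows of 300 bp. The HNF4A promoters had the lowest GC content of the 8, at 60.0% upstream and 57.7% downstream, where the other 6 windows ranged from 69.3% for FOXA1 to 80.7% for CEBPA. None of those 6 held a peak in any library. Over 22156 promoters of coding genes the median GC content was 62.3%. The 605 promoters with a peak in all 4 libraries had a median of 62.7% and an interquartile range of 59.0 to 65.3%, and the 19113 without any peak had a median of 62.3% and an interquartile range of 51.3 to 71.3%. The letters searched on either strand were TGTTTAC (a forkhead motif), CAAAGTC (part of an HNF4 motif), ATCGAT (an ONECUT motif) and TTGCNNAA (a C/EBP motif). None of the 8 windows held any of these motifs as spelled. Of all coding promoters 2.85%, 3.0%, 0.740% and 8.69% hold these letters, in the same order. Other spellings were not searched, so the absence of these letters does not show that a promoter lacks sites for these factors.

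Across the whole series the lactate libraries held fewer and narrower peaks than the control libraries. The lists held 37951 and 38402 peaks covering 22.0 and 21.8 Mb for lactate, and 52215 and 52959 peaks covering 41.0 and 41.0 Mb for control. The median peak width was 448 and 437 bp with lactate and 547 and 537 bp in control. The lists give no read counts, but the deposited fold and -log10 p fix the whole number of ChIP reads at every summit. The mean ChIP coverage behind the peaks was 0.926 and 1.01 reads per base in the lactate libraries and 1.19 and 1.12 in the control libraries, so lactate libraries were the shallower ones. The reads at a summit divided by this mean are called the summit height below. Absence from a list means that a site missed the caller's threshold, and at a site called in control alone lower depth and less of the mark cannot be told apart.

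The member windows together held 15 and 13 peaks in the lactate libraries and 25 and 26 in the control libraries. Peaks covered 6624 and 6018 bp of these windows with lactate, against 14433 and 14173 bp in control. On average that is 6321 ± 429 bp in lactate and 14303 ± 184 bp in control (SD, n = 2), a ratio of 0.442, where the ratio over the whole genome was 0.534. The groups did not overlap, and the exact two-sided permutation test over the 4 libraries gave p = 0.33, the smallest it can give here. HNF4A alone gave 2802 bp of the lactate mean and 6853.5 bp of the control mean, so these totals lean on 1 gene. Per Mb covered by all peaks of a library, the member windows held 301 and 277 bp with lactate and 352 and 346 in control (exact permutation p = 0.33). With windows of 50 kb on either side this last difference turned round, to 1103 bp per Mb with lactate and 1079 in control on average (exact permutation p = 1).

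**Figure D1:**
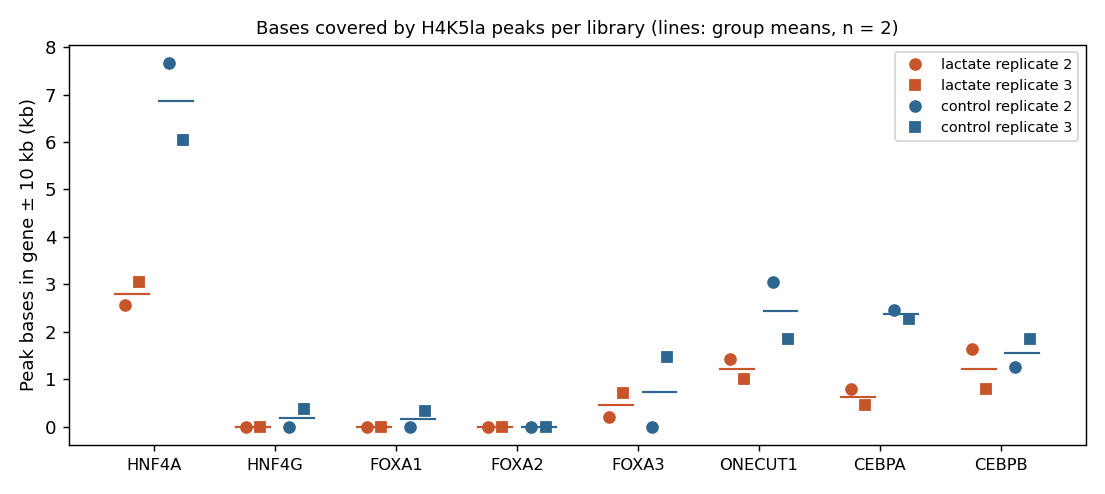
Kilobases covered by H4K5la peaks within each gene plus 10 kb on either side, for the 8 factor genes. Points are single libraries, lactate left of control, and lines are means of 2 libraries; HNF4A ranges from 2556 to 3048 bp with lactate and from 6039 to 7668 bp in control, while FOXA2 is at 0 in every library.

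HNF4A (chromosome 20, 44355699 to 44434596) carried the most peaks. Its window held 6 and 7 peaks in lactate replicates 2 and 3, and 14 and 12 in control replicates 2 and 3. They covered 2556 and 3048 bp with lactate and 7668 and 6039 bp in control, a ratio of means of 0.409. Every control value lay above both lactate values (exact permutation p = 0.33, adjusted p = 0.527 over 12895 coding genes with a peak in any library). The peaks were narrow in all libraries, at most 664 and 655 bp wide with lactate and at most 1176 and 822 bp in control. Merged over the libraries they formed 17 regions, with every summit inside the gene. Of these, 4 regions held a peak in all 4 libraries, 2 in both control libraries alone, none in both lactate libraries alone, and 7 in 1 library. Over the genome 20499 of 71122 regions held a peak in all 4 libraries. The shares of the other patterns were not taken, and the control lists are the longer ones everywhere.

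The downstream promoter region (chromosome 20, 44401043 to 44401864) had its summits 58 and 103 bp after the start in the lactate libraries and 73 and 143 bp after it in the control libraries. The peaks were 328 and 432 bp wide with lactate and 659 and 822 bp wide in control, so the widths did not overlap. The summit height was 28.1 and 39.5 with lactate and 24.4 and 33.1 in control, which do overlap. The authors' fold enrichment was 5.83 and 7.85 with lactate and 7.13 and 14.3 in control. The fold is taken over a local background, which at these summits was 3.78 and 3.90 times the genome-wide background in the lactate libraries and 2.39 and 1.2 times in the control libraries. The upstream promoter region (44355663 to 44356375) was lower, with a summit height of 15.1 and 16.8 with lactate and 20.2 and 17.0 in control. Its summits were at 44355772 and 44355805 with lactate and at 44356076 and 44356118 in control, a spread of 346 bp over the 4 libraries with both control summits further into the gene.

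The highest fold enrichment with lactate at HNF4A lay in the gene at 44405841 to 44406360, with summits 4884 and 4948 bp after the downstream start with lactate and 4874 and 4888 bp after it in control. It was 14.9 and 15.7 in the lactate libraries and 11.6 and 11.4 in the control libraries. These values stand at the 97.7 and 98.1 percentile of all peaks of their own library for lactate, and at the 93.6 and 89.3 percentile for control. The summit heights were closer, at 33.5 and 36.5 with lactate and 32.8 and 32.2 in control. The local background was 1.07 and 1.11 times the genome-wide one with lactate and 1.74 and 1.74 times in control. The widths were 424 and 488 bp with lactate and 474 and 475 bp in control, and the 4 summits fell within 74 bp. In a neighbouring region, 44402537 to 44403353, the peaks were 664 and 655 bp wide with lactate and 817 and 772 bp in control. The summit held 11 and 9 reads with lactate and 26 and 24 in control, a height of 11.9 and 8.89 against 21.9 and 21.5.

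Between the promoters, HNF4A-AS1, a long noncoding RNA gene, spans 44356744 to 44395706 within HNF4A. In that interval neither lactate library had a peak. Control replicate 2 had 4 peaks overlapping it and control replicate 3 had 4. No background was taken for such an interval. Regions at 44388643 to 44389042 and at 44392943 to 44393322 were found in both control libraries. In the first the control heights were 22.7 and 26.9, and in the second 10.9 and 15.2. A peak of control replicate 3 alone at 44369875 to 44370248 had 40 reads at its summit but a fold of 3.09, over a local background 10.8 times the genome-wide one. Further into the gene a region at 44411217 to 44411701 held a peak in both lactate libraries and in control replicate 3, with heights of 36.7 and 32.6 with lactate and 26.9 in that control library. Regions at 44398816 to 44399247, 44413696 to 44414920 and 44429403 to 44429919 held a peak in both control libraries and 1 lactate library. Their heights were 21.7, 22.7 and 17.8 in lactate replicates 3, 2 and 3. In control replicate 2 they were 21.0, 20.2 and 27.7, and in control replicate 3 28.7, 33.1 and 19.7.

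**Figure D2:**
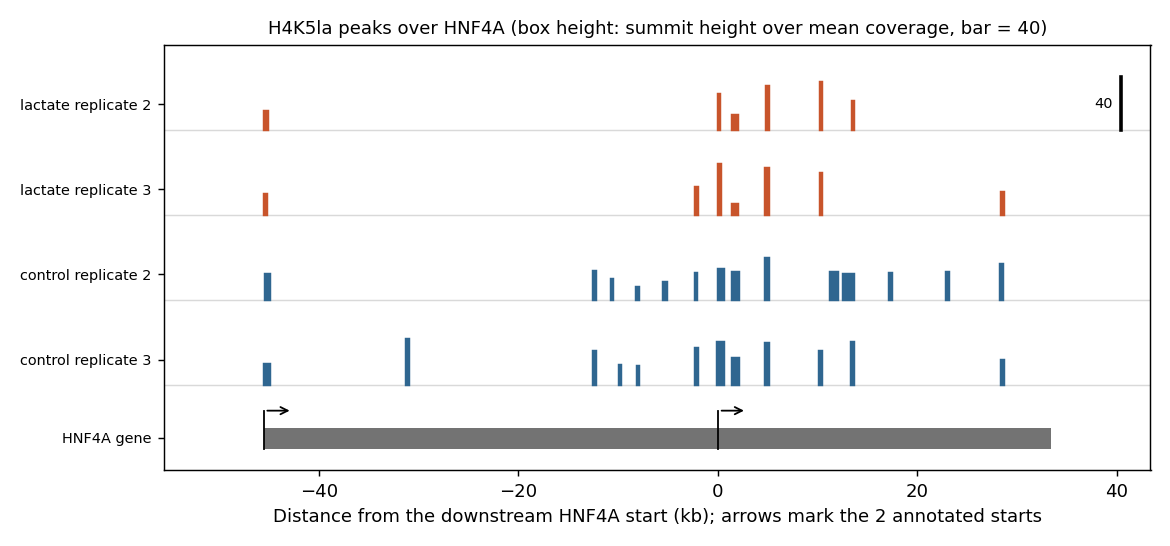
H4K5la peaks of each library over HNF4A plus 10 kb on either side, against distance in kb from the downstream start. Box width is the peak's width and box height its summit height over mean coverage (the bar marks 40); the lactate libraries, drawn above the control libraries, hold no peak over HNF4A-AS1, between the 2 starts, where the control libraries hold 4 and 4.

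HNF4G (chromosome 8, 75407649 to 75566834), the paralogue of HNF4A, was nearly free of peaks although its window is the longest of the 8, at 179 kb. Neither lactate library nor control replicate 2 had a peak there. Control replicate 3 had 1 peak of 370 bp that ended 3033 bp before the lower end of the gene, with a fold of 3.70. The nearest peak lay 185228 and 185284 bp from the gene in the lactate libraries and 217925 bp away in control replicate 2.

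The FOXA genes held few peaks or none. FOXA1 (chromosome 14, 37589552 to 37595249) had no peak in either lactate library or in control replicate 2, and 1 peak of 324 bp in control replicate 3, which lies in the neighbouring gene TTC6. Without that peak the nearest one lay 1064904 and 616128 bp away with lactate and 417056 bp away in control replicate 2. FOXA2 (chromosome 20, 22580998 to 22585490) had no peak within 10 kb in any library. The nearest peaks of the lactate libraries lay 19883 and 19931 bp away, in the noncoding RNA gene LINC00261, with a fold of 10.1 and 8.30. In the control libraries the nearest peaks lay 236934 and 23137 bp away. These neighbours outside the window were picked after their values were seen.

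FOXA3 (chromosome 19, 45864326 to 45873797) had 1 and 1 peak in the lactate libraries and 0 and 2 in the control libraries. A peak in the gene was present in lactate replicate 3, 721 bp wide with a height of 37.5 and its summit 7936 bp after the start, and in control replicate 3, 688 bp wide with a height of 35.8 and its summit 7967 bp after the start. Neither replicate 2 had it. Lactate replicate 2 had a peak of 374 bp at the edge of the window, in SYMPK. The covered length was 205 and 721 bp with lactate and 0 and 1477 bp in control, so the groups overlapped (exact permutation p = 1). The difference, lactate minus control, was -275.5 bp and became 463 bp without control replicate 3 and 119 bp when every list was trimmed to the same length.

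ONECUT1 (chromosome 15, 52755053 to 52790336) carried all its peaks but 1 before its 5′ end, 2 of the 3 regions there overlapping the noncoding RNA gene LOC105370824. The exception was a peak of 401 bp in the gene in control replicate 2. The window held 3 and 2 peaks with lactate and 4 and 3 in control. They covered 1437 and 1007 bp with lactate and 3042 and 1844 bp in control, a ratio of 0.5, and the groups did not overlap (exact permutation p = 0.33, adjusted p = 0.527). The region nearest to the start, 52791030 to 52791692, held peaks in lactate replicate 2 and both control libraries, with summits 965 bp before the start in lactate and 1051 and 913 bp before it in control. Its fold was low, 3.70 with lactate and 5.09 and 5.27 in control, over a local background 4.04 times and 3.83 and 3.79 times the genome-wide one. The next region, 52794695 to 52795674, held peaks in lactate replicate 3 and both control libraries. Its height was 34.6 with lactate and 22.7 and 18.8 in control, and its fold 9.20 with lactate and 8.81 and 7.17 in control.

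The region of ONECUT1 shared by all 4 libraries lay at 52797876 to 52799164, with summits 7791 and 7798 bp before the start with lactate and 7766 and 7786 bp before it in control. The summit held 24 and 39 reads with lactate and 21 and 18 in control, a height of 25.9 and 38.5 against 17.7 and 16.1. Both lactate heights lay above both control heights. At these summits the fold was 7.20 and 10.2 with lactate and 7.89 and 7.24 in control, and the local background was 2.52 and 2.60 times the genome-wide one with lactate and 1.2 and 1.2 times in control. In lactate replicate 2 the region held 2 peaks of 594 and 359 bp, the second lower in height (22.7) but with a higher fold (8.66, above both control values), where control replicate 2 had a single peak of 1243 bp.

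CEBPA (chromosome 19, 33299934 to 33302534) had no peak in the gene or at its start in any library, and all its peaks lay in the flanks. The window held 2 and 1 peaks with lactate and 4 and 4 in control. They covered 797 and 454 bp with lactate and 2455 and 2278 bp in control, a ratio of 0.264, the lowest among the members with a peak in every library. The groups did not overlap (exact permutation p = 0.33, adjusted p = 0.527). The region present in all 4 libraries, 33290897 to 33291941, lay downstream of the gene with summits 11386 and 11312 bp after the start with lactate and 11217 and 11147 bp after it in control. It was 370 and 454 bp wide with lactate and 1007 and 1002 bp wide in control. Its height was 22.7 and 14.8 with lactate and 26.1 and 23.3 in control. A region beside it, 33290032 to 33290574, held a peak in both control libraries alone, with heights of 26.1 and 22.4. Upstream, the region 33309767 to 33310265 held a peak in lactate replicate 2 and both control libraries, with heights of 24.8 with lactate and 24.4 and 28.7 in control.

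CEBPB (chromosome 20, 50190583 to 50192690) likewise had no peak in the gene, and its peaks formed 3 regions downstream. The region nearest the gene, 50197004 to 50197942, held a peak in lactate replicate 2 (height 17.3) and in both control libraries (19.3 and 25.1). The window held 3 and 2 peaks with lactate and 3 and 3 in control. They covered 1629 and 788 bp with lactate and 1268 and 1841 bp in control, so the groups overlapped (exact permutation p = 0.667), and without lactate replicate 3 the difference was 74.5 bp in the other direction. The region at 50198328 to 50198745 had a width of 382 and 358 bp with lactate and 375 and 341 bp in control, and its 4 summits lay within 49 bp. Its height was 25.9 and 23.7 with lactate and 24.4 and 23.3 in control. At 50200475 to 50201118 the height was 29.2 and 31.6 with lactate and 32.8 and 30.5 in control. The authors' fold was higher with lactate at both, 10.3 and 9.32 against 7.21 and 6.90 at the first and 11.5 and 12.1 against 8.74 and 8.22 at the second. The local background at the first was 1.38 and 1.38 times the genome-wide one with lactate and 2.35 and 2.35 times in control. At the second it was 1.38 and 1.42 times with lactate and 2.69 and 2.65 times in control. The series holds a single input sample per treatment, and the labels do not say which input went with which library. At the first region the local background was 1.38496 and 1.38477 with lactate and 2.35147 and 2.35142 in control. With backgrounds this near to equal, the 2 folds of a treatment share their denominator and are not independent.

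**Figure D3:**
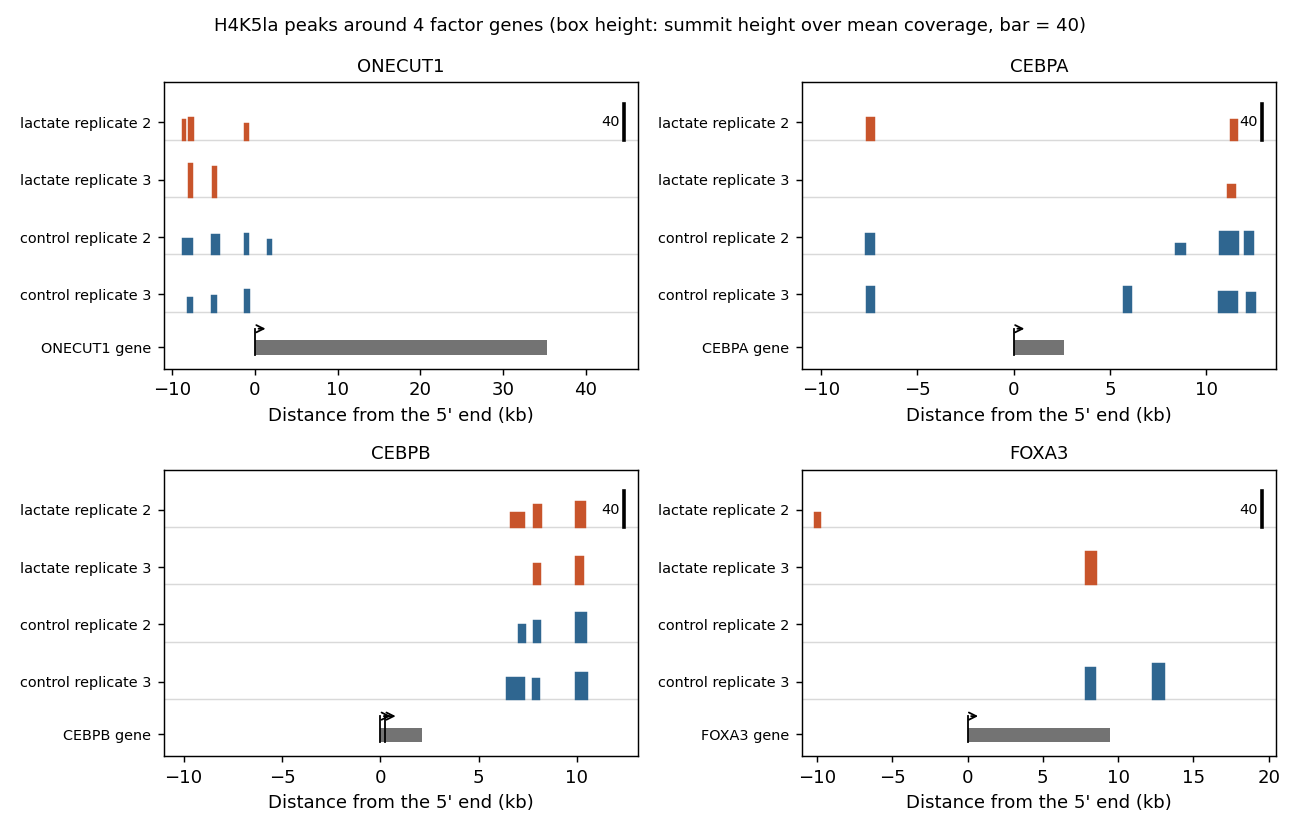
H4K5la peaks of each library around ONECUT1, CEBPA, CEBPB and FOXA3, against distance in kb from the gene's 5′ end in its direction of transcription (arrows). Box width is the peak's width and box height its summit height over mean coverage (the bar marks 40); the peaks of CEBPA and CEBPB lie outside the gene in all libraries, lactate above control.

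Read over the 8 genes, 7 had a peak in at least 1 library, where 64.6% of coding gene windows had one. A region with a peak in all 4 libraries lay in 4 of the 8 windows, those of HNF4A, ONECUT1, CEBPA and CEBPB, where 34.2% of coding gene windows held such a region. The covered length was lower in both lactate libraries than in both control libraries for 3 of the 7 genes with a peak, HNF4A, ONECUT1 and CEBPA. The same pattern held for 57.9% of the coding gene windows with a peak, so the count for the members is not above the background. None of the 7 showed the converse, which 5.37% of the coding gene windows did. The number of members whose groups did not overlap was 1 over the gene spans alone and 5 with windows of 50 kb on either side. The share over all coding genes was not taken at these settings, so these counts have no background beside them. A peak within 1 kb of an annotated 5′ end was present in all 4 libraries at HNF4A alone, against 7.06% of coding genes. ONECUT1 had one in lactate replicate 2 and in both control libraries. For FOXA2 and HNF4G, whose start is not in the promoter table, both gene ends were used.

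Per length of window, CEBPA and CEBPB were covered most by the mean of the 4 libraries, at 6.62% and 6.25%. With lactate alone CEBPB was highest, and HNF4A and CEBPA came next at nearly the same value. Peaks covered 2.77% of the CEBPA window with lactate and 10.5% in control on average, and 5.47% of the CEBPB window with lactate and 7.03% in control. HNF4A stood at 2.83% with lactate and 6.93% in control, ONECUT1 at 2.21% and 4.42%, and FOXA3 at 1.57% and 2.51%. By the mean of the 4 libraries these genes lay between the 70.1 and the 86.9 percentile of all coding genes, and HNF4G, FOXA1 and FOXA2 between the 35.4 and the 46.8 percentile.

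**Figure D4:**
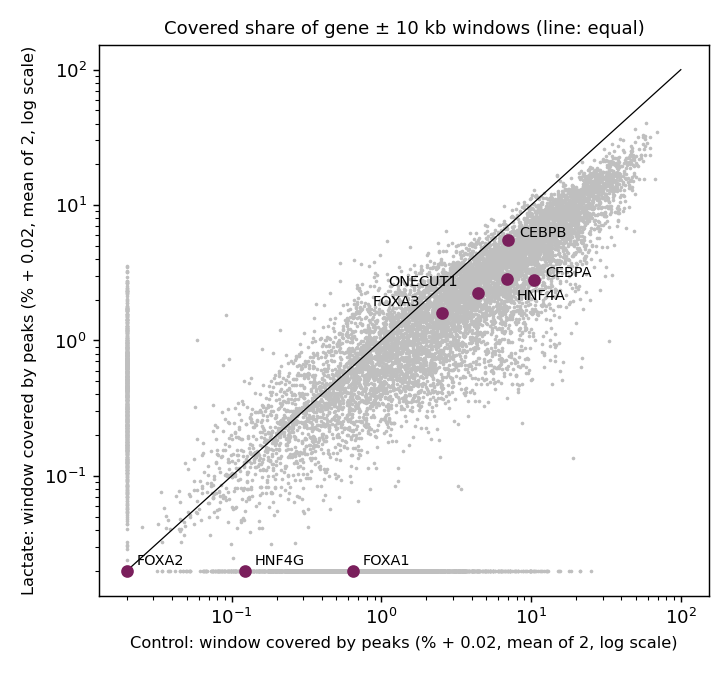
Percent of each gene window (gene plus 10 kb on either side) covered by H4K5la peaks, as means of 2 libraries, with lactate on the y axis and control on the x axis, both logarithmic after adding 0.02. Grey points are all coding genes, purple points the 8 factor genes and the line marks equal values; of the 5 genes above 0 with lactate CEBPB lies nearest to the line, and HNF4G, FOXA1 and FOXA2 lie at 0 with lactate.

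The 4 windows held 8 regions present in all 4 libraries. Both lactate widths lay below both control widths in 5 of the 8, where 54.1% of all 20499 such regions in the genome did so. The ratio of lactate to control width ranged from 0.410 at CEBPA to 1.03 at CEBPB, with a median of 0.801 over the 8 against 0.8 over all. Both lactate heights lay above both control heights in 2 of the 8, the HNF4A region 4.9 kb after the downstream start and the ONECUT1 region. Over all such regions that share was 43.7%. Both lay below in 3 of the 8, at the HNF4A upstream promoter, 1.7 kb after the HNF4A downstream start and at CEBPA, and over all such regions that share was 13.5%. With 8 regions these counts are a description, and some rest on small gaps. In the HNF4A region 4.9 kb after the downstream start, lactate replicate 2 stood at 33.5 (31 reads) and control replicate 2 at 32.8 (39 reads). At the HNF4A upstream promoter, lactate replicate 3 stood at 16.8 (17 reads) and control replicate 3 at 17.0 (19 reads). Counting error was not set beside these heights. The median log2 difference in height, lactate minus control, was -0.00079 over the 8 regions and 0.22 over all. The summits of the 4 libraries spread over 32 to 346 bp in the 8 regions, where the median spread was 198 bp over all.

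**Figure D5:**
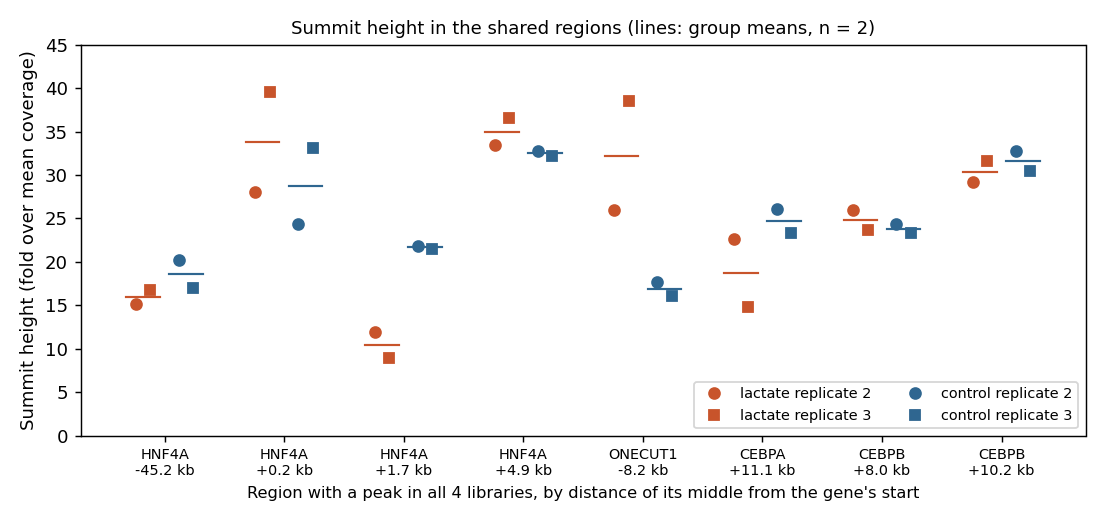
Summit height over mean coverage in the 8 regions with a peak in all 4 libraries, named by gene and by the distance of the region's middle from the gene's start (for HNF4A the downstream start). Points are libraries, lactate left of control, and lines are means of 2; the region 1.7 kb after the HNF4A start is at 11.9 and 8.89 with lactate and at 21.9 and 21.5 in control.

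Other genes of the hepatocyte factor network were read the same way, as a list of 30 nuclear receptors, GATA, leucine zipper and other factors. A peak was found in 27 of the 30 windows, where 64.6% of all coding gene windows had one, and 15 held a region in all 4 libraries, where 34.2% did. The covered length was lower in both lactate libraries than in both control libraries for 18 of the 27, near the 57.9% of all coding gene windows with a peak, and the converse held for 0, against 5.37%. The median ratio of lactate to control was 0.427 over the 26 with control coverage, against 0.409 over the 7 members and 0.494 over 12139 coding genes. RXRA, the partner with which many liver nuclear receptors bind DNA, stood far above the rest, with 33168 and 29147 bp covered with lactate and 81181 and 85223 bp in control in a window of 134131 bp. KLF15, a regulator of glucose production, had 3037 and 4091 bp with lactate and 7997 and 7850 bp in control. GATA4, an endoderm factor, had 4265 and 5178 bp with lactate and 4064 and 5507 bp in control, and TBX3, a factor of liver bud growth, 2349 and 2509 bp with lactate and 3284 and 3640 bp in control.

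Peaks of a single treatment were found at 6 of those 27 genes, near the 23.4% of all coding gene windows with a peak. CREB3L3 (a membrane-bound factor of fasting metabolism), DBP (a circadian leucine zipper factor), NR0B2 (SHP, a repressor in bile acid feedback) and GATA6 were covered in both control libraries and in no lactate library, a pattern of 8.67% of the coding gene windows with a peak. The control values were 919 and 1370 bp at CREB3L3, 1049 and 324 bp at DBP, 447 and 576 bp at NR0B2 and 788 and 445 bp at GATA6. NR1H4, the bile acid receptor FXR, had 413 bp in control replicate 3 alone, and NR1I3, the xenobiotic receptor CAR, 338 bp in lactate replicate 2 alone. CEBPD, FOXO1 and XBP1 had no peak in any library. No test was made on this list.

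The coding genes whose covered length over the 4 libraries was nearest to that of HNF4A were OSGIN1, KLC2 and SLC38A8, by Euclidean distance on log2 of the covered length plus 100 bp. OSGIN1 had 2427 and 2958 bp with lactate and 7820 and 6390 bp in control, at a distance of 0.119. KLC2 lay at 0.144 and SLC38A8 at 0.183. A peak list gives no expression level, so the liver origin of the line could not be checked by expression. Among hepatocyte markers, 3 of 9 windows held any peak, and ALB, APOB, TTR, FGB, AHSG and AFP held none in any library. APOA1 had 1122 and 1171 bp with lactate and 3646 and 3109 bp in control. TF had 811 and 409 bp with lactate and no peak in control, and SERPINA1 had 642 bp in control replicate 3 alone. Any peak was found at 6 of 6 endothelial and stromal markers, 2 of 4 blood markers and 3 of 4 cholangiocyte markers, against 64.6% of all coding gene windows. The windows differed in length, with a median of 33.9 kb for hepatocyte, 60.1 kb for endothelial and stromal, 29.4 kb for blood and 31.6 kb for cholangiocyte markers.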

How the data were processed

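The values are peaks of H4K5la ChIP-seq libraries, 2 from lactate-treated and 2 from control PLC/PRF/5 cells. Reads were trimmed and aligned and duplicates removed, per the labels' protocols. The tools named in the submitters' processing notes include Trimmomatic 0.38, Bowtie2 2.3.4.2, Picard 2.18.11 and MACS2 2.2.6, and the build was hg38. Each deposited list holds the peaks of 1 library. For every peak the authors deposited a score, the fold over local background (a ratio), a p-value and a q-value, the last pair as -log10. The smallest -log10 q was 2.00 to 2.02.

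Peaks were read with pandas 2.3.3, numpy 2.4.6 and scipy 1.17.1 under Python 3.11.15 and plotted with matplotlib 3.10.9. Windows were the RefSeq gene spans of GRCh38.p14 plus 10 kb, with a minimum overlap of 1 bp. The gene table gives no exons, so exons, introns and UTRs were not assigned. Starts came from the RefSeq promoter table. Whole reads at a summit were solved by inverting the caller's Poisson formula, with a pseudocount of 1 and a tolerance of 0.001 on -log10 p, for 100% of peaks in each library, and the solver was tested on simulated data. The mean coverage is the caller's genome-wide background rescaled to the ChIP library. Counting error was not set beside the reads or the heights.

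Lactate and control were compared by exact permutation, two-sided, with 6 possible assignments, with Benjamini-Hochberg adjustment over coding genes. Of the other factor genes, those named are from the 6 with the largest mean covered length, of which 2 are not reported here, and the 6 covered in 1 treatment alone. The genes and lists were chosen with earlier results of these data known. Other settings were a minimum -log10 q of 5, lists trimmed to the 37951 strongest peaks, no flank or 50 kb, summits only, peaks within 1 kb joined, 5′ windows of 3 kb, each library left out, and a replicate block. The FOXA2 and HNF4G promoter sequences were not used here.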

Additional observations from a re-analysis of the deposited data

How the results depend on the processing

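The lower number of peaks, covered length and covered share in the member windows kept their direction under all settings that were run, except that the share with windows of 50 kb was 23.6 bp per Mb higher with lactate. With 2 libraries a group no setting could pass a threshold, so p-values say nothing about stability. The number of members whose lactate and control lengths did not overlap was 3, but 1 without a flank, 5 with 50 kb, and 3 to 7 when a library was left out, with 7 without control replicate 2. The FOXA3 difference was 119 bp with equal numbers of peaks, 16.5 bp without a flank, and -1014 to 463 bp when a library was left out. The CEBPB difference was -766.5 to 74.5 bp when a library was left out, above 0 only without lactate replicate 3. The cause of these changes was not tested. Pairing libraries by replicate number (replicate block) left the mean differences at -11.5 peaks, -7982 bp, -60.3 bp per Mb and -0.5 genes with a 5′ end peak, with exact sign-flip p-values of 0.5, 0.5, 0.5 and 1. The number of members lower in both pairs was 3, and the share over all coding genes was not taken for this count. The labels do not say that the numbers mark shared cultures. Lower depth in the lactate libraries limits calls of absent peaks.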
